A study of Mus musculus with 9 samples.

Results

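Transcripts of 10 genes that take up glucose and carry it through glycolysis to lactate were followed in mouse back skin: the glucose transporter genes Slc2a1 and Slc2a4, the hexokinase genes Hk1 and Hk2, the phosphofructokinase genes Pfkm and Pfkl with their regulator Pfkfb3, the pyruvate kinase gene Pkm, and the lactate dehydrogenase genes Ldha and Ldhb. They were chosen by gene symbol, and all 10 were among the 23282 rows of the count tables and among the 13740 rows that passed the low-count filter. Slc2a4, Hk2 and Pfkm were taken as the 3 muscle-type isoenzymes and the other 7 as general ones. All skin came from wild-type C57BL/6 (B6) mice, with 3 libraries in each of 3 groups. One group was left unstripped and is labelled with control cream; the others were tape-stripped, which peels off the outer layers of the epidermis, and given either control cream or a cream containing graphene oxide of nanometre size (NGO), a form of carbon. Per the labels' protocols, 100 µL of cream per mouse, with 50 µg of NGO in the NGO group, went on the stripped area only, so whether the unstripped skin received cream is not settled by the labels. Skin was taken 24 h after treatment. The series title names acute inflammation of the skin under NGO as its subject. Sex and age are not in the labels, and whether the numbered replicates are separate mice is not said there either; the p-values then rest only on how far these libraries vary, which may be technical.

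Glucose enters cells through facilitative transporters, of which GLUT1 (Slc2a1) is widespread and GLUT4 (Slc2a4) is the insulin-regulated form of muscle and fat. Hexokinase phosphorylates glucose, phosphofructokinase commits it to glycolysis, pyruvate kinase makes pyruvate, and lactate dehydrogenase interconverts pyruvate and lactate. Each step has isoenzymes from different genes: Hk2 and Pfkm dominate in skeletal muscle and Hk1 and Pfkl in many other tissues, although Hk2 is also induced in proliferating and activated cells. Pfkfb3 makes fructose 2,6-bisphosphate, an activator of phosphofructokinase. Ldha encodes the subunit named for muscle but is expressed broadly, and Ldhb encodes the subunit named for heart. Mouse back skin lies on a thin sheet of skeletal muscle, the panniculus carnosus.

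The starts of 4 of these genes are shown because the genes moved differently in the data below: Hk2 and Ldha rose most among the hexokinase and lactate dehydrogenase genes, Ldhb is the partner of Ldha, and Pfkl fell. Each line is the 250 bases before the RefSeq start (GRCm38.p6), 5′ to 3′ on the gene's strand. Hk2 lies at chr6:82774455-82774704 (minus strand), Ldha at chr7:46845554-46845803 (plus strand, the first of 2 starts), Ldhb at chr6:142507958-142508207 (minus) and Pfkl at chr10:78009808-78010057 (minus). Capitals mark ACGTG on either strand, the core that hypoxia-inducible factors and some E-box factors read.
Hk2: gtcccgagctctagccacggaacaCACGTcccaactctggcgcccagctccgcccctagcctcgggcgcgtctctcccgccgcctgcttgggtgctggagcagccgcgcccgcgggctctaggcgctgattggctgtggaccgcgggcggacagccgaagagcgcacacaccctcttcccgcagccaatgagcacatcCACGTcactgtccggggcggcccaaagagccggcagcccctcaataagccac
Ldha: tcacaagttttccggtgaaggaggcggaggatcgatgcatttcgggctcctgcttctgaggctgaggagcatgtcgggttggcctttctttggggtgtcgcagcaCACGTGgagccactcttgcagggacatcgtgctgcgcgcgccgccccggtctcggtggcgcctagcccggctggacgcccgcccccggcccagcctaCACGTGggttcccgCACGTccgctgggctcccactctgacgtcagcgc
Ldhb: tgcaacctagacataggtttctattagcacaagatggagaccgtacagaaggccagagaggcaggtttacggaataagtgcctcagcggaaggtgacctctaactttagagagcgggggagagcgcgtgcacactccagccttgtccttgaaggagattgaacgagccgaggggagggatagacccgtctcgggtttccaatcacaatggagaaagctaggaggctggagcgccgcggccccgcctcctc
Pfkl: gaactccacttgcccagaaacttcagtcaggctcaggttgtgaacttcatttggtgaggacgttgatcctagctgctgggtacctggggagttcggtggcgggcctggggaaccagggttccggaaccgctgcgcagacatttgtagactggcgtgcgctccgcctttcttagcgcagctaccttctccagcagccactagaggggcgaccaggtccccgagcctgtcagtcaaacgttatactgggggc
Hk2 and Ldha hold the core, and Pfkl and Ldhb, which also rose, do not. The second Ldha start does not hold it. As the 4 genes were picked by how they moved, these windows do not show that the core goes with direction. RefSeq starts were matched for 9 of the 10 genes, all but Slc2a4. They gave 16 starts in all, with up to 4 for a single gene (Pfkm). The core was in 8 of these 16 windows, against 16.6% of all 32851 windows of that length. The others that hold it lie at Slc2a1, Pfkm, Pfkfb3 and Pkm, and Slc2a1 and Pfkfb3 passed in no comparison below. CANNTG, which overlaps this core in CACGTG, was in 11 of 16 (66.2% of all windows), GGGCGG in 6 of 16 (32.7%) and the MEF2 motif of muscle genes in 0 of 16 (2.92%), each on either strand. Such a match is a description of letters and shows no binding.

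Libraries held 2019739 to 6303322 counts. The 18 skeletal muscle markers took 0.0241% to 0.188% of counts in unstripped, 4.91% to 10.9% in stripped control and 2.55% to 5.26% in NGO-treated libraries; 1 of them, Tnnt1, was at 0 in unstripped skin. The 9 basal keratinocyte markers, none of them at 0 in any group, took 2.70% to 3.34%, 0.145% to 0.244% and 1.35% to 2.10% in the same order, at the lowest share in stripped control skin. The 8 suprabasal keratinocyte markers took 0.685% to 1.52%, 0.0188% to 0.0398% and 0.103% to 0.146%; in stripped control skin Ivl was at 0 and Krt1 had 0, 8 and 0 counts. The 14 neutrophil markers took 0.0162% to 0.0221%, 0.293% to 0.838% and 0.0630% to 0.190%. Camp was at 0 in each group, and Clec4d and Ngp were at 0 in unstripped skin. Most of the stripped control counts of this list were S100a8 and S100a9, with 20655 and 26200 counts over the group. By the edgeR test used below, 8 of the 13 tested rose after stripping and 0 fell. Csf3r, Cxcr2, Mmp8, Mmp9 and Il1r2 did not pass. The 10 adipocyte markers took 0.00748% to 0.0113%, 0.0840% to 0.105% and 0.0569% to 0.0951%; Plin1 was at 0 in unstripped skin and Lep and Cidec in stripped control skin. Endothelial, red blood cell and fibroblast markers were also lowest in unstripped skin, at 0.00402% to 0.00643%, 0.00482% to 0.0162% and 0.0367% to 0.0415%, against 0.0303% to 0.0655%, 0.0908% to 0.120% and 0.0719% to 0.126% in stripped control and 0.0208% to 0.0385%, 0.0290% to 0.0535% and 0.0720% to 0.140% in NGO-treated skin. The 10 macrophage markers took 0.00756% to 0.0134% in unstripped, 0.0275% to 0.0634% in stripped control and 0.0156% to 0.0231% in NGO-treated libraries. By edgeR 2 of these 10, Cd68 and Cd14, rose after stripping and 0 fell. Rn45s, a ribosomal RNA precursor, took 13.2% to 16.05% of unstripped, 22.1% to 25.1% of stripped control and 9.35% to 20.99% of NGO-treated libraries, and 14546 to 16183, 12433 to 13309 and 13863 to 14404 genes had a count. These values moved with the results below and their part in them was not tested. In such bulk samples fewer cells of a type and less RNA per cell cannot be told apart. Levels are given as CPM, counts scaled to a common library size, with TMM factors. The tag kit reads transcript ends, so CPM was not divided by length, and levels of different genes are set side by side only as numbers of tags.

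In stripped control against unstripped skin, 7 of the 10 genes changed at an adjusted p under 0.05 (edgeR quasi-likelihood test, Benjamini-Hochberg over 13740 genes). All 3 muscle-type genes rose, with Ldha, Pkm and Ldhb, and Pfkl fell. Over all genes tested, 5.97% rose and 7.64% fell, 13.6% in all. The median log2 fold change was 4.55 for the 3 muscle-type genes, 0.42 for the 7 general ones and -0.20 over all genes tested. Groups did not overlap for 5 genes that were higher and 1 that was lower, against 13.8% and 24.7% of all genes tested. The counts of the 10 genes together made up 0.0829% to 0.114% of unstripped, 0.184% to 0.463% of stripped control and 0.212% to 0.266% of NGO-treated libraries. The 3 muscle-type genes held 10.3% to 11.7% of these counts in unstripped, 39.7% to 55.9% in stripped control and 30.6% to 40.4% in NGO-treated skin.

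**Figure D1:**
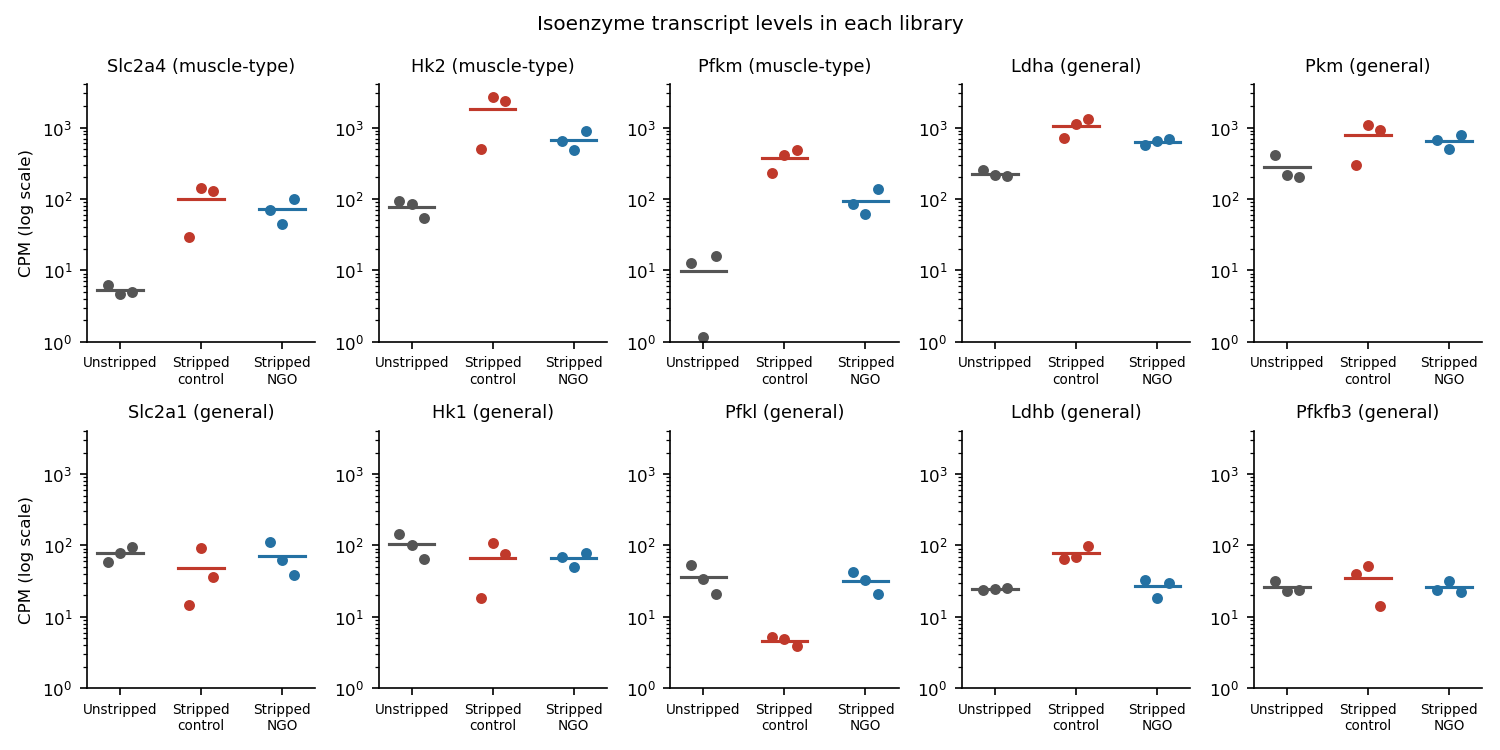
Level of each gene in CPM (log axis) in the 9 libraries, with 1 point per library and a bar at the group mean. The muscle-type genes and Ldha sit higher in every stripped library than in any unstripped one, while Pfkl is lowest in the 3 stripped control libraries.

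Among the transporters, Slc2a4 (GLUT4; mm10 chromosome 11, 69942539 to 69948188) was at 6.19, 4.72 and 5.01 CPM in unstripped libraries, 29.0, 142 and 129 CPM in stripped control libraries and 69.1, 44.0 and 101 CPM in NGO-treated libraries (replicates 1, 2 and 3 in each). Every stripped library was above every unstripped one, and stripped control replicate 1 was the lowest of the 6. The gene rose by 4.23 ± 0.65 on the log2 scale (SE, n = 3 against 3) after stripping, an 18.8-fold change (edgeR adjusted p = 0.000644). Slc2a1 (GLUT1; chromosome 4, 119108711 to 119137983) was at 59.2, 78.1 and 96.1 CPM in unstripped, 14.5, 93.3 and 36.0 CPM in stripped control and 113, 62.9 and 39.1 CPM in NGO-treated libraries. Its groups overlapped in all 3 comparisons, and the log2 fold change after stripping was -0.69 ± 0.60 (edgeR adjusted p = 0.525); without stripped control replicate 2 it was -1.58 (0.112).

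Among the hexokinases, Hk2 (chromosome 6, 82725025 to 82774454) was at 94.2, 86.1 and 54.8 CPM in unstripped, 499.7, 2670.2 and 2319.6 CPM in stripped control and 649.8, 485 and 889 CPM in NGO-treated libraries. The groups with and without stripping did not overlap, and stripped control replicate 1 lay well under the other two. That library also had the lowest skeletal muscle marker share of its group, 4.91% against 8.58% and 10.9%, and the fewest counts of all libraries, 2019739. In CPM it was the lowest of its group for all of the 10 genes but Pfkl and Pfkfb3. The part of depth or muscle share in these values was not tested. The log2 fold change of Hk2 after stripping was 4.55 ± 0.56, or 23.3-fold (edgeR adjusted p = 0.000153). Hk1 (chromosome 10, 62268855 to 62379908), the widespread hexokinase, was at 144, 102 and 65.4 CPM in unstripped, 18.6, 109 and 74.9 CPM in stripped control and 69.4, 50.2 and 79.5 CPM in NGO-treated libraries. These groups overlapped, with a log2 fold change of -0.62 ± 0.55 after stripping (edgeR adjusted p = 0.531).

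The phosphofructokinase genes moved in opposite directions. Pfkm (chromosome 15, 98092589 to 98132451) was at 12.7, 1.18 and 15.9 CPM in unstripped, 233, 412 and 487 CPM in stripped control and 84.8, 60.6 and 138 CPM in NGO-treated libraries. The 3 groups did not overlap, with stripped control skin highest and unstripped skin lowest. Pfkm rose by 5.25 ± 0.72 after stripping, 37.9-fold (edgeR adjusted p = 0.000312); limma-voom gave 6.34. Pfkl (chromosome 10, 77986947 to 78010083), the liver-type and widely expressed enzyme, was at 53.7, 34.2 and 21.2 CPM in unstripped, 5.17, 4.87 and 3.86 CPM in stripped control and 42.9, 32.6 and 20.96 CPM in NGO-treated libraries. Stripped control skin was below both other groups without overlap, on 10, 15 and 12 counts, and the NGO-treated range lay over the unstripped one. Basal keratinocyte markers were lowest in the same 3 libraries, as given above, and their part in the Pfkl values was not tested. The log2 fold change of Pfkl after stripping was -2.97 ± 0.72, 7.81-fold lower (edgeR adjusted p = 0.0145), a call lost without unstripped replicate 1 or 2 (0.0905 and 0.0534) and with limma-voom (0.130).

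Pfkfb3 (chromosome 2, 11471433 to 11554077), the regulator, was at 31.6, 23.3 and 23.9 CPM in unstripped, 39.3, 52.3 and 14.1 CPM in stripped control and 23.9, 31.7 and 22.1 CPM in NGO-treated libraries. Its groups overlapped in all comparisons, and the log2 fold change after stripping was 0.42 ± 0.63 (edgeR adjusted p = 0.737). Without stripped control replicate 2 this value was -0.00042.

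At the end of the pathway, Ldha (chromosome 7, 46841475 to 46855627) was at 251, 217 and 208 CPM in unstripped, 717, 1126 and 1297 CPM in stripped control and 566, 642 and 688 CPM in NGO-treated libraries. The 3 groups did not overlap, with NGO-treated skin in the middle. Ldha rose by 2.22 ± 0.30 after stripping, 4.65-fold (edgeR adjusted p = 0.000258). Ldhb (chromosome 6, 142490249 to 142507957) was at 24.1, 24.2 and 25.3 CPM in unstripped, 65.2, 68.6 and 98.0 CPM in stripped control and 32.3, 18.5 and 30.3 CPM in NGO-treated libraries. Stripped control skin was above both other groups, and Ldhb rose by 1.65 ± 0.48, 3.15-fold (edgeR adjusted p = 0.0340). Pkm (chromosome 9, 59656368 to 59679375), whose counts do not separate the muscle isoform M1 from M2, was at 418, 214 and 202 CPM in unstripped, 299, 1087.6 and 934 CPM in stripped control and 659, 497 and 781 CPM in NGO-treated libraries. Stripped control replicate 1 lay within the unstripped range. Pkm rose by 1.48 ± 0.45, 2.79-fold (edgeR adjusted p = 0.0427).

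The rises of Slc2a4, Hk2, Pfkm and Ldha after stripping held in all 9 fits with 1 library left out and under the 10 other alternatives. The Pkm call passed in 2 of the 9 fits, those without unstripped replicate 1 or stripped control replicate 1, with adjusted p up to 0.168 in the others. The Ldhb call passed in 5 of 9 and was lost without any 1 of the unstripped replicates or stripped control replicate 3 (up to 0.143). With the replicate number as a block, Pkm (edgeR adjusted p = 0.0852) and Ldhb (0.0605) did not pass, nor did Pkm with the 2 groups fitted alone (0.0983) or Ldhb without a low-count filter (0.0589).

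**Figure D2:**
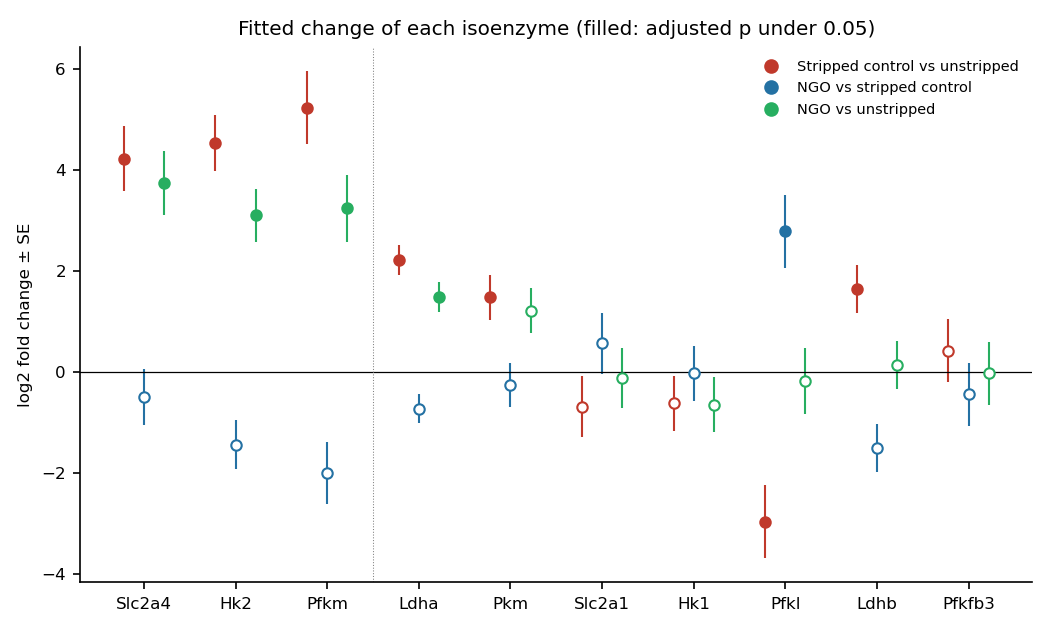
Fitted log2 fold change with its standard error for the 10 genes in the 3 comparisons, muscle-type genes left of the dotted line, with filled points where the adjusted p was under 0.05. Filled red points stand at 4.23 to 5.25 for the muscle-type genes, and the only filled blue point is Pfkl at 2.79.

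In NGO-treated against stripped control skin, Pfkl alone passed the test, and it was higher: 2.79 ± 0.72 on the log2 scale, 6.90-fold (edgeR adjusted p = 0.0423), with 3 of 3 NGO-treated libraries above the highest stripped control one (16.3% of all genes tested lay so). Over all genes tested, 5.05% passed, 3.87% higher and 1.18% lower. This call held without stripped control replicate 1 (0.0391) and was lost in the other 8 fits that left out 1 library (up to 0.136), with RLE scaling, with limma-voom, without a low-count filter, with the replicate block (0.0714) and with the 2 groups fitted alone. For Pfkm, Ldha and Ldhb all 3 NGO-treated libraries lay below the lowest stripped control one, as they did for 8.92% of all genes tested, but the 3 genes did not pass: their log2 fold changes were -2.00 ± 0.61 (edgeR adjusted p = 0.0762), -0.73 ± 0.29 (0.160) and -1.51 ± 0.47 (0.0809). Hk2 gave -1.44 ± 0.49 (0.110), with stripped control replicate 1 inside the NGO-treated range; without that library Hk2 gave -1.92 (0.00531), Pfkm -2.28 (0.0491) and Ldha -0.98 (0.0389), and all 3 passed. Pfkm also passed without unstripped replicate 2 (0.0213) and with limma-voom (0.0101). DESeq2 called Hk2, Pfkm, Ldha and Ldhb lower (adjusted p = 0.0236, 0.0112, 0.0349 and 0.00567). Over the whole table DESeq2 called 1721 genes in this comparison and edgeR 694, so the shares above do not apply to the DESeq2 calls. Slc2a4 (-0.49 ± 0.55), Slc2a1 (0.57 ± 0.60; 1.46 without stripped control replicate 2), Hk1 (-0.02 ± 0.54), Pkm (-0.26 ± 0.44) and Pfkfb3 (-0.44 ± 0.63) had overlapping groups and edgeR adjusted p from 0.649 to 0.989.

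In NGO-treated against unstripped skin, the 3 muscle-type genes and Ldha were higher and none of the 10 genes was lower, beside 2.06% higher and 0.451% lower, 2.51% in all, over all genes tested. Slc2a4 differed by 3.74 ± 0.63 (edgeR adjusted p = 0.00508), Hk2 by 3.11 ± 0.53 (0.00508), Pfkm by 3.25 ± 0.66 (0.0155; 4.203 with limma-voom) and Ldha by 1.49 ± 0.29 (0.0117). Pfkm did not pass without unstripped replicate 1 or NGO-treated replicate 3 (up to 0.0650), and Ldha without unstripped replicate 2 or 3 or NGO-treated replicate 2 or 3 (up to 0.0986). Groups did not overlap for 5 genes, all higher, and 0 lower, against 11.9% and 14.4% of all genes tested. The fifth was Pkm, above every unstripped library in 3 of 3 NGO-treated libraries without passing (1.22 ± 0.44, edgeR adjusted p = 0.2499). The fitted differences of Pfkl (-0.18 ± 0.66), Ldhb (0.14 ± 0.47), Slc2a1 (-0.12 ± 0.60), Hk1 (-0.64 ± 0.54) and Pfkfb3 (-0.02 ± 0.62) had adjusted p of 0.819 or more. These comparisons share libraries: stripped control skin is in the first 2, and unstripped skin in the first and the last.

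Isoenzyme balance was then read within each library, where it does not depend on library size or scaling. Hk2 made up 39.5%, 45.8% and 45.6% of hexokinase counts (Hk2 plus Hk1) in unstripped libraries, 96.4%, 96.1% and 96.9% in stripped control libraries and 90.3%, 90.6% and 91.8% in NGO-treated libraries. The 3 groups did not overlap, and stripped control replicate 1, low in Hk2 by CPM, stood with its group. The mean log2 ratio of Hk2 to Hk1 was -0.37 ± 0.21 (SD, n = 3), 4.77 ± 0.17 and 3.32 ± 0.14, so that NGO-treated skin differed by -1.44 ± 0.13 (SE) from stripped control skin and by 3.69 ± 0.15 from unstripped skin. Each of these differences had p = 0.1, the smallest that a two-sided exact permutation test of 3 against 3 allows (0.109 adjusted over 12 pair comparisons).

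Pfkm made up 19.2%, 3.33% and 42.9% of Pfkm plus Pfkl counts in unstripped, 97.8%, 98.8% and 99.2% in stripped control and 66.4%, 65.0% and 86.8% in NGO-treated libraries. The groups did not overlap, the unstripped share rested on 120 to 193 counts, and its 95% Wilson intervals ran from 1.30% to 8.26% in replicate 2 and from 34.6% to 51.6% in replicate 3. The log2 ratio of Pfkm to Pfkl was higher by 8.62 ± 1.32 (SE) after stripping and differed by -4.71 ± 0.73 (SE) between NGO-treated and stripped control skin (exact permutation p = 0.1). The first difference was 7.47 without unstripped replicate 2 and 9.61 without unstripped replicate 3, and the second was -5.30 without NGO-treated replicate 3. Slc2a4 made up 9.47%, 5.69% and 4.96% of Slc2a4 plus Slc2a1 counts in unstripped, 66.7%, 60.4% and 78.2% in stripped control and 38.0%, 41.1% and 72.1% in NGO-treated libraries. The log2 ratio of Slc2a4 to Slc2a1 was higher by 4.96 ± 0.47 (SE) after stripping (exact permutation p = 0.1). Stripped control and NGO-treated skin overlapped through NGO-treated replicate 3 (difference in log2 ratio -1.10 ± 0.76 SE, exact permutation p = 0.3; -1.76 without that library). Wilson intervals cover counting error only.

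The lactate dehydrogenase pair went another way. Ldha made up 91.2%, 89.98% and 89.1% of Ldha plus Ldhb counts in unstripped, 91.7%, 94.3% and 93.0% in stripped control and 94.6%, 97.2% and 95.8% in NGO-treated libraries, and the groups did not overlap. The log2 ratio of Ldha to Ldhb was 0.55 ± 0.20 (SE) higher after stripping and a further 0.84 ± 0.33 higher with NGO (exact permutation p = 0.1 each), while the other 3 pairs had lower ratios with NGO than in stripped control skin. All 12 pair differences kept their sign with a pseudocount of 2 counts, with counts summed over the group, with the replicate block and without each library in turn.

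**Figure D3:**
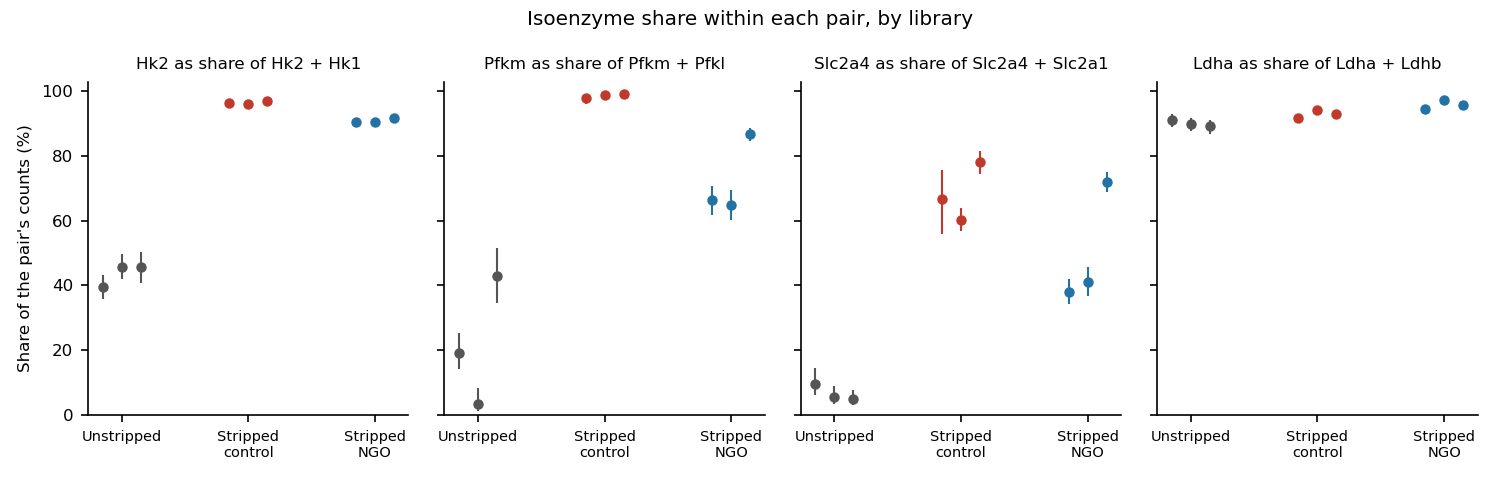
Share of the first gene in the counts of each isoenzyme pair (percent), with 1 point per library and its 95% Wilson interval. Hk2 stands at 39.5% to 45.8% in unstripped, 96.1% to 96.9% in stripped control and 90.3% to 91.8% in NGO-treated skin.

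The muscle-type genes were also set against the summed skeletal muscle marker counts of the same library. Eno3, the muscle enolase gene, stood at 12.3 to 15.6 counts per 1000 muscle marker counts in unstripped, 13.3 to 14.9 in stripped control and 12.2 to 15.2 in NGO-treated libraries, so its range was alike in all 3 groups. Pgam2, the muscle phosphoglycerate mutase gene, did not stay so close, at 1.42 to 13.1, 8.05 to 11.6 and 10.7 to 18.6. Pfkm stood at 5.68 to 12.5, 3.42 to 4.55 and 2.49 to 3.41 on this scale. Slc2a4 stood at 3.08 to 22.7, 0.565 to 1.33 and 1.83 to 2.78, with NGO-treated libraries above stripped control ones. Hk2 stood at 33.7 to 415, 9.74 to 24.97 and 16.1 to 26.1, so that stripped control and NGO-treated libraries overlapped and unstripped ones were higher. Ldha stood at 128 to 1045, 9.11 to 14.0 and 12.5 to 27.7, and Pkm at 124 to 1029.8, 5.83 to 10.2 and 14.1 to 26.5. The unstripped values rest on 704 to 5519 muscle marker counts a library, and no test was made on this scale.

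**Figure D4:**
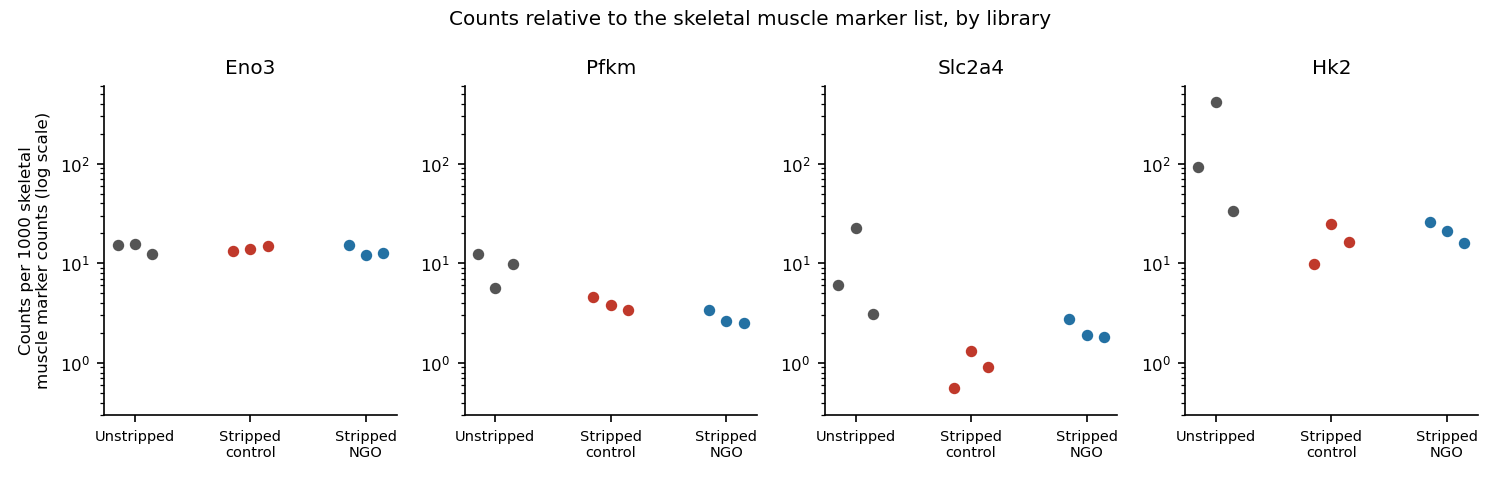
Counts of Eno3, Pfkm, Slc2a4 and Hk2 per 1000 counts of the 18 skeletal muscle markers (log axis), with 1 point per library. Eno3 stays between 12.2 and 15.6 in all 9 libraries, while Hk2 runs from 9.74 to 415.

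Other genes of glucose metabolism were taken from 7 lists of 86 genes, of which 77 passed the filter. After stripping, 18 rose and 4 fell, where 5.97% of all genes tested rose and 7.64% fell, with a median log2 fold change of 0.71 over the 77 against -0.20 over all genes tested. Of 13 muscle-type glycolysis and glycogen genes 10 rose and 0 fell (list median 4.30). They included Eno3 (6.78 ± 0.70, edgeR adjusted p = 5.59e-05), Pgam2 (6.96 ± 0.97, 0.000345) and Ppp1r3c, which targets a phosphatase to glycogen (5.67 ± 0.82, 0.000468). Of 11 tested general enzymes of the glycolytic steps 5 rose and 0 fell (median 1.01). Aldoa, an aldolase gene abundant in muscle, went from 449 ± 157 to 5530.0 ± 3166.7 CPM (SD, n = 3; 3.62 ± 0.56 SE, edgeR adjusted p = 0.000675), Gapdh rose by 3.23 ± 0.53 (0.00109) and the triose phosphate isomerase gene Tpi1 by 2.40 ± 0.42 (0.00166). Pgk1 and Pgm2 were the others that rose. Among 5 tested phosphofructokinase regulators Pfkfb4 (3.72 ± 0.96, 0.0196) and the muscle fructose bisphosphatase gene Fbp2 (4.88 ± 1.32, 0.0254; also in the muscle-type list) rose. Of 16 tested genes of lactate and pyruvate fate 2 rose, Pdk2, a kinase that inhibits pyruvate dehydrogenase (3.92 ± 0.82, 0.00562), and Slc16a1, the monocarboxylate transporter MCT1 (1.99 ± 0.60, 0.0418).

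Of 18 tested hypoxia-response genes 0 rose and 1 fell, the carbonic anhydrase gene Car12 (-3.20 ± 0.64, edgeR adjusted p = 0.00430), against 5.97% and 7.64% of all genes tested, with a list median of -0.32 (-0.20 over all genes tested). At an unadjusted p under 0.05, 2 were higher and 3 lower, and DESeq2 called 1 higher and 1 lower. Over the whole table DESeq2 called 2976 genes after stripping and edgeR 1870. Vegfa (0.63, adjusted p = 0.590), Bnip3 (1.11, 0.109) and Egln3 (0.89, 0.354), targets of hypoxia-inducible factors named after their values were seen, did not pass by edgeR; the gene that DESeq2 called higher was Bnip3. These named genes all had positive values. The genes lower at an unadjusted p under 0.05, beside Car12, were Higd1a (-1.07, edgeR adjusted p = 0.163) and Ddit4 (-1.23, 0.171). The higher ones were Bnip3 and Hif1a (0.91, 0.176). Of 7 pentose phosphate genes Tkt, the transketolase gene (-1.24 ± 0.37, 0.0400), and Rpe fell; Rpe had 47, 71 and 97 counts in unstripped and 3, 2 and 0 counts in stripped control libraries (edgeR adjusted p = 0.0315). Of 8 other transporter and hexokinase isoforms tested 0 rose (2 at an unadjusted p under 0.05 and 2 by DESeq2), and the transporter gene Slc2a12 fell, with 60, 124 and 113 counts in unstripped and 2, 0 and 0 in stripped control libraries (edgeR adjusted p = 0.0185).

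With NGO, 2 of the 77 genes were higher than in stripped control skin and 0 were lower by edgeR, beside 3.87% and 1.18% of all genes tested: Car12 (3.44 ± 0.64, edgeR adjusted p = 0.0109) and Tkt (1.96 ± 0.38, 0.0120). DESeq2 called 4 higher (Car12, Tkt, Rpe and Pfkfb1) and 4 lower (Gapdh, Tpi1, Eno3 and Bnip3). Over the whole table it called 1721 genes in this comparison and edgeR 694, so the edgeR shares do not apply to these calls. Pfkfb1 passed the low-count filter only through the NGO-treated libraries. The median over the 77 genes was -0.49, against 0.07 over all genes tested. The 13 muscle-type genes had a median of -1.05 and 0 passed by edgeR (3 lower at an unadjusted p under 0.05, 1 lower by DESeq2). Against unstripped skin 7 of the 77 were higher and 0 lower by edgeR, beside 2.06% and 0.451% of all genes tested. The median over the 77 genes was 0.49 in that comparison, against -0.07 over all genes tested. Muscle-type genes made up 6 of the 7, led by Eno3 (5.14 ± 0.66, edgeR adjusted p = 0.000804), Pgam2 (6.02 ± 0.93, 0.00308) and Ppp1r3c (4.16 ± 0.77, 0.00870). The other was Aldoa (2.39 ± 0.53, 0.0277).

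**Figure D5:**
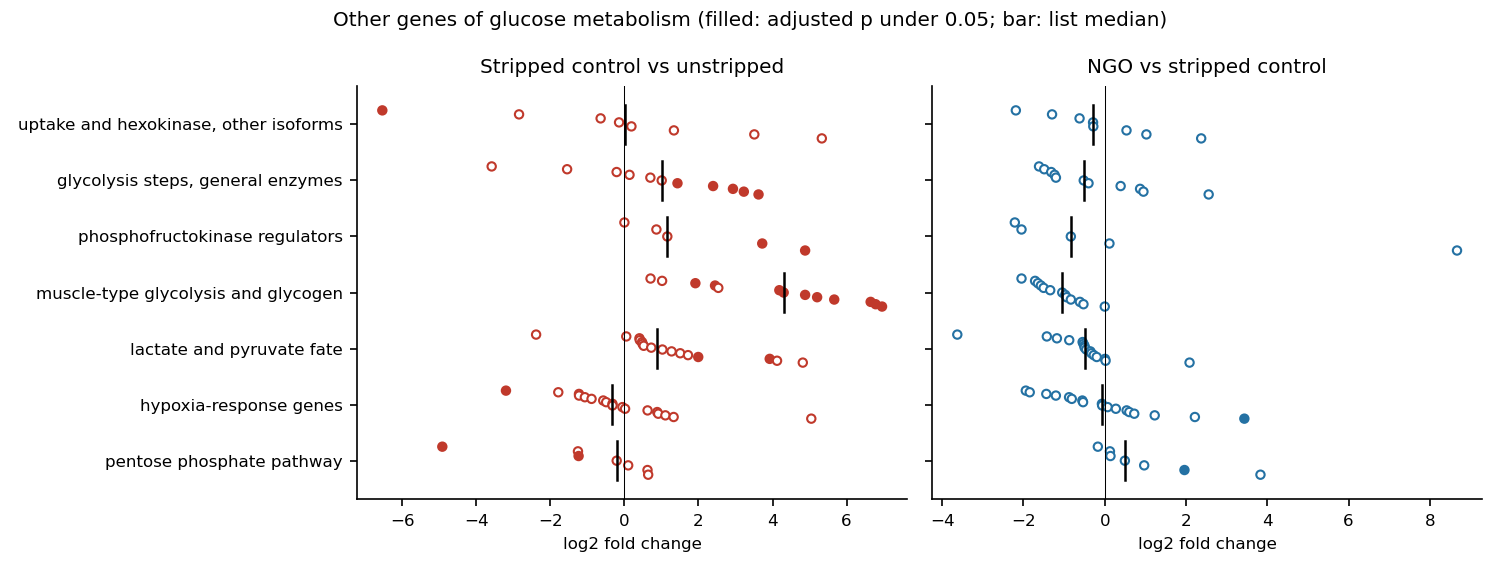
Log2 fold change of each tested gene of the 7 lists after stripping (left) and with NGO against stripped control skin (right), with 1 point per gene, filled where the adjusted p was under 0.05, and a bar at the list median. The muscle-type list stands apart on the left with a median of 4.30, and on the right only Car12 and Tkt are filled. The open point at 8.67 on the right is Pfkfb1, which had 0 counts in the unstripped and stripped control libraries.

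The genes whose level ran most alike over the 9 libraries were found by the root-mean-square difference in log2 CPM, each gene centred on its own mean, among 10266 genes. Closest to Slc2a4 were Synpo2l, a gene of the muscle Z disc (0.33), and Gyg, the glycogen primer glycogenin (0.37). Closest to Hk2 were Synpo2l (0.32) and the metallothionein gene Mt1 (0.36). The fitted log2 fold change after stripping was 6.79 for Synpo2l, 4.18 for Gyg and 4.16 for Mt1. For Slc2a4 it was 4.23 and for Hk2 4.55. Log2 CPM here had a prior count of 2, which narrows differences at low levels, so a small distance can go with unlike fold changes. Pfkm had Myom1, a protein of the muscle M band (0.35), and Amot (0.35). Pfkl had the basal keratin gene Krt14 (0.30) and the fatty acid synthase gene Fasn (0.33). The nearest genes to Ldha were Enah (0.18) and Serpinb6a (0.19), to Ldhb Lars2 (0.24) and Dnajb2 (0.26), to Pkm Ap1s2 (0.26) and Trex1 (0.26), to Slc2a1 Met (0.34) and Cirbp (0.34), to Hk1 Zfp275 (0.22) and Prdm2 (0.24), and to Pfkfb3 Fem1b (0.20) and Snx18 (0.22). These distances are a description over libraries that share their groups.

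No source used here says how reads with several matches were counted, and near-identical copies carry that doubt. Gapdh stood at only 22.2 ± 6.05 CPM in unstripped skin, and Eno1 was at 0 counts in 8 of 9 libraries, while its near-identical partner Eno1b had 72 to 261 counts a library in the first of its 2 rows. Ldha has 2 pseudogenes named after it in GENCODE M21, with 0 rows in the count tables. Senp1 overlaps Pfkm on the opposite strand and had 91, 80 and 88 counts in unstripped, 35, 4 and 0 in stripped control and 182, 25 and 180 in NGO-treated libraries, so it was not higher where Pfkm was highest. Hk1os overlaps Hk1 on the opposite strand and had 0 counts in 6 libraries and 60 in stripped control replicate 2.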

How the data were processed

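RNA of back skin (500 ng a sample) was made into Lexogen QuantSeq libraries, per the labels' protocols, and for each of the 9 libraries the authors deposited raw gene counts under gene symbols. The submitters' processing notes name Bowtie2, bedtools and mm10 but no version; no source used here gives the strand or multi-mapping rule. Tables held 23282 rows and 23238 unique symbols; the 44 repeat rows were kept apart.

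Counts were fitted in R 4.3.3 with the edgeR 4.0.16 quasi-likelihood test (robust, TMM, default low-count filter) on all 9 libraries with group as the factor, and adjusted by Benjamini-Hochberg over 13740 genes. Isoenzyme pairs were compared as log2 count ratios (pseudocount 0.5) by two-sided exact permutation. Alternatives used DESeq2 1.42.0, limma 3.58.1 (voom) and the settings in the closing section. The edgeR script was tested on simulated data with less spread between libraries than was found here. That check therefore does not show how reliable the calls in these data are. Coordinates are from GENCODE M21 (GRCm38, mm10).

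The 10 genes, the lists and the tests were chosen with earlier results of these data known. Named genes were all 10, up to 3 called genes with the smallest p per pathway list and comparison, and the 2 nearest genes to each of the 10 by level (average log2 CPM of at least 3). Depth ran from 2019739 to 6303322 counts a library. No 2 libraries were alike within sampling noise (chi-square per degree of freedom of at least 7.82 within a group).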

Additional observations from a re-analysis of the deposited data

How the results depend on the processing

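Of the 30 fold changes over the 10 genes and 3 comparisons, 23 alternative values had the other sign, none of them of a called change. In NGO-treated against stripped control skin, Hk1 was at 0.062 with the replicate block. In NGO-treated against unstripped skin, Pfkfb3 was at 0.0057 with upper-quartile scaling, 0.046 without a low-count filter, 0.069 with limma-voom and 0.0072 with the 2 groups alone, and Pfkl was at 0.095 with limma-voom. Leaving out 1 library moved Pfkfb3 from -0.00042 to 0.81 after stripping, Hk1 from -0.50 to 0.48, Pfkfb3 from -0.81 to 0.0034 and Pkm from -0.68 to 0.055 against stripped control, and Slc2a1 from -0.62 to 0.15, Pfkl from -0.46 to 0.21, Pfkfb3 from -0.20 to 0.13 and Ldhb from -0.014 to 0.35 in NGO-treated against unstripped skin.

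Over all genes, DESeq2 called 2976 after stripping, 1721 for NGO-treated against stripped control and 756 for NGO-treated against unstripped skin, limma-voom 414 and 1353 in the last 2, and fits of the 2 groups alone 118 and 602. Fits without 1 library called 1159 to 2124, 206 to 929 and 214 to 495. Of the 10 genes, those fits called 4 to 7 after stripping (4 without unstripped replicate 2), 0 to 4 with NGO against stripped control (4 without stripped control replicate 1) and 2 to 5 against unstripped skin (2 without NGO-treated replicate 3). For NGO-treated against stripped control skin, 0 of the 10 passed with RLE scaling, without a low-count filter, with the replicate block or with the 2 groups alone (1 in the reported fit, 5 with DESeq2). Of the 77 list genes, 4 passed without a low-count filter, 8 with DESeq2, 5 with limma-voom, 0 with the 2 groups alone and 2 to 6 without 1 library. Against unstripped skin these were 4, 15 and 19, and 4 to 9 without 1 library; after stripping, fits without 1 library called 15 to 27. The cause of these differences was not tested.

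No pairing of samples by replicate number was seen: deviations of same-numbered libraries correlated at -0.057 to 0.086 over 9 pairs, with 0 over 0.1. With 3 libraries a group this cannot exclude a small shared effect, and the labels do not say what the numbers mark. With the replicate block 5 of the 10 genes passed after stripping, 0 for NGO-treated against stripped control and 4 for NGO-treated against unstripped skin. RLE scaling moved the median of all genes by 0.126 after stripping and by -0.123 for NGO-treated against stripped control skin (log2), without a change of sign in the called genes. All 108 alternative values of the isoenzyme pairs kept their sign.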

Other observations

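Pfkfb1, a gene of the same regulator family as Pfkfb3 and best known from liver and muscle, was singled out after its values were seen. It had 0 counts in all 3 unstripped and all 3 stripped control libraries and 60, 90 and 28 counts in the NGO-treated libraries, or 18.1, 20.8 and 4.66 CPM. It did not pass against stripped control skin (edgeR adjusted p = 0.0773) or unstripped skin (0.134). DESeq2 called it higher in both (adjusted p = 0.00793 and 0.00788). It passed the low-count filter only through the NGO-treated libraries. Counts of this size also occur in a single library of a group: Plin1 had 0, 60 and 0 counts in the stripped control libraries. Pfkfb1 was singled out and passed the filter by these same values. Neither its counts in all 3 NGO-treated libraries nor the DESeq2 calls are therefore support for a difference. The source of its counts was not tested.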
